A study of Mus musculus with 3 samples.

Results

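The zinc-finger factors Snai1, Snai2, Zeb1 and Zeb2, the basic helix-loop-helix (bHLH) factor Twist1 and the intermediate filament protein vimentin (Vim) were measured in RNA bound to endothelial ribosomes of the mouse heart. They were taken from the expression table by gene symbol, and all 6 were found among its 17583 genes. RNA was sequenced from hearts of 3 EC-RiboTag mice of genotype Cdh5-CreERT2;Rpl22tm1.1Psam, in which an inducible Cre under the endothelial Cdh5 promoter adds a hemagglutinin tag to the ribosomal protein RPL22, so that ribosomes of recombined cells can be immunoprecipitated from the whole homogenate. The 3 mice form a single condition: the labels place all of them 7 days after coronary ligation, the published RiboTag methods describe hearts without naming an infarction, and no age is given per mouse. The sample names carry the letters Rz, and the paper abbreviates the remote zone of infarcted hearts as RZ, also for EC-RiboTag hearts at 7 days in a separate PCR experiment, but no label ties these libraries to a zone. No input, uninfarcted or Cre-negative library was analysed here, so no difference between conditions and no enrichment over whole heart was measured. The values below are normalized counts, and each mouse is 1 replicate.

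Endothelial-to-mesenchymal transition is a change in which endothelial cells lose junction proteins such as VE-cadherin and gain mesenchymal proteins such as fibronectin and smooth muscle actin. It forms the cardiac cushions in the embryo and has been described in injured and fibrotic hearts. TGF-beta signaling induces the Snail, Twist and Zeb factors, and these repress cadherin and other junction genes by binding E-box sequences with the help of corepressors. Vimentin is widely used as a mesenchymal marker, but resting endothelial cells contain it as well.

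Snail and Zeb proteins bind the E-box CACCTG, which reads CAGGTG on the other strand. The 250 bases before the start of Snai1 and Twist1 are printed because both genes varied strongly between the mice and Snai1 held this E-box itself. They are RefSeq sequences on the plus strand of build GRCm38.p6, an older build than that of the expression table, at chr2:167537945-167538194 for Snai1 and chr12:33957421-33957670 for Twist1, and the E-box is in capitals.
Snai1: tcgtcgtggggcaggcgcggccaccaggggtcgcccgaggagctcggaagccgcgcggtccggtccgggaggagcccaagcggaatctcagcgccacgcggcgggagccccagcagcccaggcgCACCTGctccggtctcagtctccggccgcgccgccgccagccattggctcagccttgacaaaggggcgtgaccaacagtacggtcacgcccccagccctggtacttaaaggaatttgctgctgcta
Twist1: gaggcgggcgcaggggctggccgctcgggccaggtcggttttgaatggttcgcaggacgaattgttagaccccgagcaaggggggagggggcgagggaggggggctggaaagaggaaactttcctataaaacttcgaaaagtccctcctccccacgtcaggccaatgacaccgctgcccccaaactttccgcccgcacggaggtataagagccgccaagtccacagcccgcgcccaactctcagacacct
The E-box of Snai1 lay 126 to 121 bases before the start, and 70% of the 250 bases were G or C. The Twist1 window had 62.4% G or C and no such motif. RefSeq promoter entries were found for 4 of the 6 genes (Snai1, Twist1, Zeb2 and Vim), and only that of Snai1 held the motif. Among 27025 genes with an entry, 19.43% held it, so its presence in 1 of 4 genes was near the general share. Of the 8 endothelial junction and receptor genes described below, 5 had an entry and 1, Ocln (occludin), held the motif. A match describes the letters only and is not a measured binding site.

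Vim was the highest of the 6 genes. It encodes the main intermediate filament of mesenchymal and endothelial cells (ENSMUSG00000026728, chr2:13578738-13587637, plus strand, 9 exons in the canonical transcript). Vim had 1648, 1792 and 1661 normalized counts in mice 1, 2 and 3, a mean of 1700.3 ± 79.65 (SD, n = 3). The mice lay close together. Divided by its canonical transcript of 2193 bases, its level was 775 ± 36.3 per kilobase (SD, n = 3), rank 70 of the 17475 genes whose length was annotated. Levels are compared between genes on this per-kilobase scale. The authors removed duplicate reads, which leaves few reads at each position of a strongly expressed gene, and Vim, at 0.775 counts per base, lay above the 99th percentile of genes averaging 200 or more (0.737 per base). How much of the level of Vim was lost in this step was not tested.

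Among the Snail factors, Snai2 predominated. Snai2 (Slug) is a transcriptional repressor of the Snail family (ENSMUSG00000022676, chr16:14523716-14527249, plus strand) and had 607, 676 and 596 normalized counts in mice 1, 2 and 3. The 3 mice were alike, with 271 ± 18.8 counts per kilobase (SD, n = 3). Snai1, the founding member of the family and a short-lived protein that GSK3B marks for degradation, lies at chr2:167380115-167384734 on the plus strand (ENSMUSG00000042821). It had 95, 138 and 159 normalized counts, with mouse 1 below both others, and a level of 80.5 ± 20.1 per kilobase (SD, n = 3). Snai2 exceeded Snai1 per kilobase in 3 of 3 mice, by a log2 ratio of 1.78 ± 0.39 (3.44-fold; exact sign-flip permutation test, two-sided, p = 0.25, which is the lower limit of this test with 3 mice). Snai3, the third member, had only 9, 5 and 4 normalized counts. On the per-kilobase scale Snai2 made up 76.4% ± 4.23 (SD, n = 3) of the 3 Snail genes together. Of 2241 windows of read length (72 bases) in the Snai2 transcript, 20 (0.892%) also occurred exactly elsewhere in the genome, and none did for the other 5 genes.

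The Zeb pair was dominated by Zeb1. Both genes encode large proteins with clusters of zinc fingers at either end that bind paired E-boxes and recruit the corepressor CTBP. Zeb1 (ENSMUSG00000024238, chr18:5591860-5775467, plus strand) had 1432, 1431 and 1693 normalized counts in mice 1, 2 and 3, with mouse 3 above a pair of nearly equal values. Its mean was 1519 ± 151 (SD, n = 3), and its level was 262 ± 26.0 per kilobase of its 5801-base canonical transcript. Zeb2 (ENSMUSG00000026872, chr2:44873644-45007407, minus strand) had 234, 229 and 346 normalized counts, again with mouse 3 above the others, and the lowest level of the 6 genes, 44.7 ± 10.97 per kilobase (SD, n = 3). Zeb2 lay below Zeb1 in 3 of 3 mice, with a log2 ratio of -2.57 ± 0.20 (5.95-fold lower; exact sign-flip test, p = 0.25). Zeb1 made up 86.4%, 86.7% and 83.6% of the pair per kilobase in mice 1, 2 and 3.

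Twist1 varied the most between the mice. It is a bHLH factor that directs mesoderm and valve mesenchyme in the embryo (ENSMUSG00000035799, chr12:34007670-34009828, plus strand, 2 exons). Its normalized counts were 70, 79 and 156 in mice 1, 2 and 3, so that mouse 3 was at 2.09 times the mean of the other two, and its level was 61.5 ± 28.6 per kilobase (SD, n = 3). Its close relative Twist2 had 5, 0 and 7 counts, and Twist1 made up 95.5% ± 4.12 (SD, n = 3) of the pair per kilobase.

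**Figure D1:**
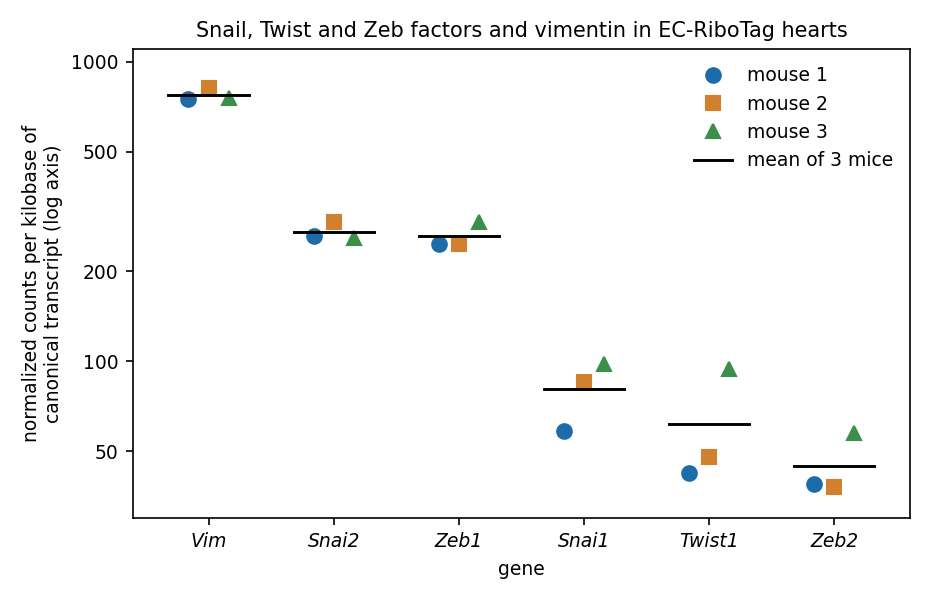
Normalized counts per kilobase of canonical transcript (log axis) of the 6 genes in each of the 3 mice; the black line is the mean. Vim lies highest, Snai2 and Zeb1 overlap, and Snai1, Twist1 and Zeb2 lie lowest, with mouse 3 at the top of each of the last 3.

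The order per kilobase was therefore Vim, Snai2, Zeb1, Snai1, Twist1 and Zeb2. Of the 15 pairs of genes, 14 had the same order in every mouse. The exception was Snai2 and Zeb1, whose log2 ratio was 0.09 in mouse 1, 0.25 in mouse 2 and -0.18 in mouse 3 (mean 0.05 ± 0.22, exact sign-flip test, p = 0.75), so these neighbors did not differ beyond their spread. Vim lay above Snai2 by a log2 ratio of 1.52 ± 0.04 (2.86-fold). Zeb1 lay above Snai1 by 1.73 ± 0.30 (3.32-fold). Snai1 and Twist1 were separated by only 0.45 ± 0.39, and in mouse 3 by 0.05. Twist1 and Zeb2 were separated by 0.39 ± 0.30. With these lengths the steps among the lower 3 genes were close to the spread between mice. The distances depend on transcript choice, since Vim, Zeb1 and Zeb2 have annotated exons outside their canonical transcripts. With the joined exons of all transcripts as length, Twist1 exceeded Zeb2 by a mean log2 ratio of 2.31 and Snai1 exceeded Zeb2 by 2.76, so Zeb2 stood apart from both. Vim then exceeded Snai2 by only 0.41, Zeb1 exceeded Snai1 by 0.50, and Snai2 exceeded Zeb1 by 1.28, each in 3 of 3 mice. The order of the 6 genes was the same with both lengths.

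All 6 genes reached at least 10 normalized counts in every mouse, as did 78.7% of all genes in the table. This share is also the background for each count of list genes reaching that minimum below. The spread between the mice split them. Among genes averaging 100 or more counts, 11.6% had a coefficient of variation (CV, the SD as a percent of the mean) over 20%, and 3 of the 6 did: Twist1 (46.5%), Snai1 (25.0%) and Zeb2 (24.5%). These are also the 3 with means of 100 to 300, a range in which 26.1% of genes passed 20% and the median CV was 12.2%. Counting alone would give a CV of 9.86% for Twist1, 8.74% for Snai1 and 6.06% for Zeb2 at these depths. Snai2 (6.92%), Vim (4.68%) and Zeb1 (9.94%) stayed under 20%, beside a median of 7.98% for genes averaging 100 or more.

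**Figure D2:**
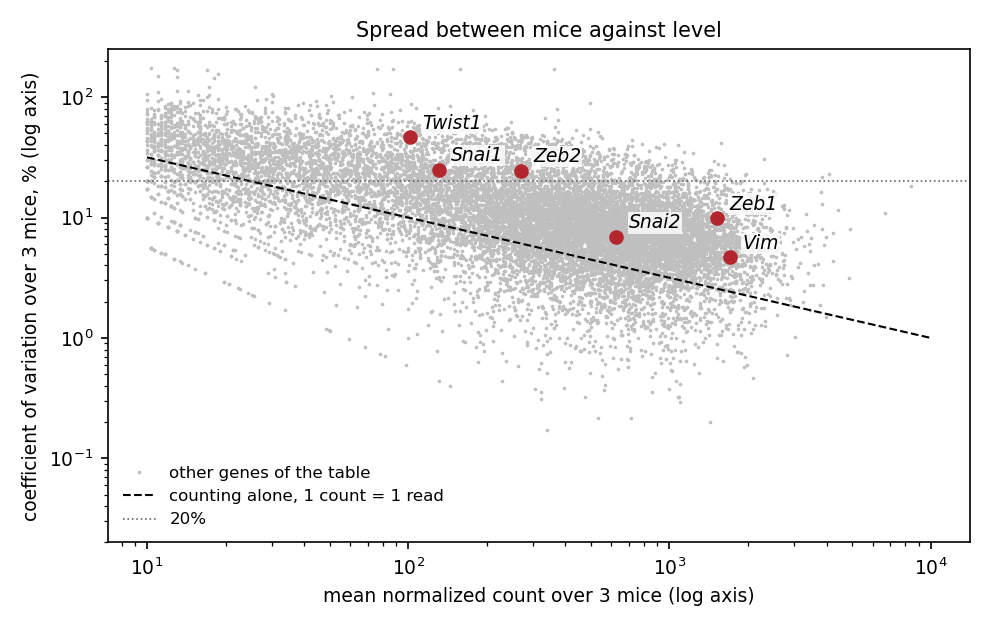
CV over the 3 mice against mean normalized count for genes averaging 10 or more (both axes log; grey points; genes with a CV of 0 are not drawn), with the 6 genes in red; the dashed line is the CV of counting if 1 count were 1 read and the dotted line is 20%. Twist1, Snai1 and Zeb2 lie above the dotted line, and Zeb1, Snai2 and Vim lie below it.

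These values depended on single mice. Without mouse 3 the CV was 8.54% for Twist1, 1.53% for Zeb2 and 0.0494% for Zeb1, and the mean of Twist1 was 74.5 in place of 102. Without mouse 1 the CV of Snai1 was 10.0%. Leaving out the most distant of 3 values always lowers their SD, so these figures only describe where the spread lay. Other omissions raised the CV, to 53.8% for Twist1 and 35.6% for Snai1 without mouse 2 and to 28.8% for Zeb2 without mouse 1. The highest value lay in mouse 3 for 4 of the 6 genes (Snai1, Twist1, Zeb1 and Zeb2), compared with 29.8% of genes averaging 100 or more. Relative to the mean of the other two, mouse 3 was at 1.495 times for Zeb2, 1.37 times for Snai1, 1.18 times for Zeb1, 0.966 times for Vim and 0.929 times for Snai2. The Zeb, Twist and Snai1 values of mouse 3 were thus high, whereas Vim and Snai2 were highest in mouse 2.

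Summed markers of several cell types were highest in mouse 3. The endothelial list, with all 10 of 10 markers above the minimum, summed to 24959, 23785 and 23825 normalized counts in mice 1, 2 and 3 and was nearly level. The 4 endocardial markers, all highest in mouse 3, summed to 5347, 4610 and 7598, and Npr3, a natriuretic peptide receptor of the endocardium, had 1589, 914 and 2228. The 8 fibroblast markers summed to 2736, 2738 and 3727, with 6 of the 8 highest in mouse 3. The 8 mural markers summed to 1652, 2012 and 2162, with 5 of the 8 highest in mouse 3, and the smooth muscle myosin gene Myh11 alone had 31, 118 and 240. The 8 cardiomyocyte markers summed to 18576, 19504 and 22442, but only 3 of them were highest in mouse 3 and 4 were highest in mouse 1, and the titin gene Ttn alone had 7379, 7743 and 10190. Of this list, Myl2 and Tnnt2 lay, like Vim, near the limit of duplicate removal, at 819 and 769 counts per kilobase. Several endothelial markers did too, and that step limits the level and spread measured for such genes. The 5 lymphatic markers summed to 2834, 3523 and 3989, with 3 highest in mouse 2 and 2 in mouse 3. Leukocyte markers summed to between 692 and 981 (9 of 10 above the minimum), epicardial markers to between 941 and 1191, of which Wt1 alone had 871 to 1055, and Schwann cell markers to between 45 and 50. Among the defining markers only Lrrn4, an epicardial gene, was at 0 in any mouse. Markers of cardiomyocytes and other cells were thus measured beside endothelial ones, and in such bulk RNA fewer cells of a type cannot be told apart from less RNA per cell. The part of these cell types in the levels of the 6 genes was not tested. The Y-linked gene Ddx3y had 1080, 3 and 1 normalized counts, the pattern of a male mouse 1 and female mice 2 and 3. Differences between mouse 1 and the others, such as its low Snai1, cannot be told apart from a difference of sex.

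**Figure D3:**
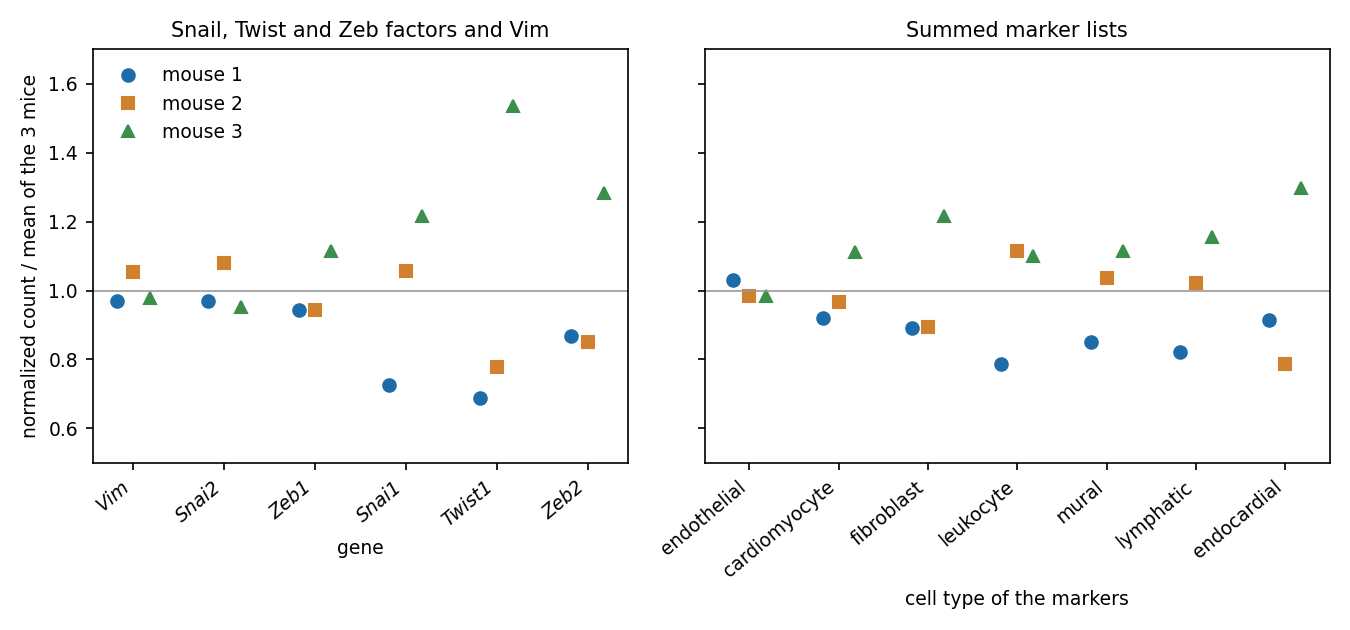
Normalized count of each of the 6 genes (left) and summed normalized counts of marker lists (right) in each mouse, divided by the mean of the 3 mice. Mouse 3 (triangles) is highest for Twist1, Zeb2, Snai1 and Zeb1 and for the sums of the endocardial, fibroblast, lymphatic, mural and cardiomyocyte lists, although most single cardiomyocyte and lymphatic markers are not highest there, while the endothelial list, Vim and Snai2 stay near 1. Duplicate removal limits the spread of Vim and of several endothelial and cardiomyocyte markers.

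Partners of Twist1 were abundant. Twist1 binds DNA as a dimer with E-proteins, and the Id proteins sequester E-proteins in dimers that cannot bind. The E-protein genes Tcf3, Tcf4 and Tcf12 together exceeded Twist1 per kilobase by a log2 ratio of 4.18 ± 0.62 (18.2-fold; 3 of 3 mice). Tcf4 had 3816, 3786 and 3681 normalized counts. The 4 Id genes together exceeded these E-proteins by 0.51 ± 0.06 on the log2 scale (1.43-fold), with Id1 the highest gene of the list per kilobase and Id4 (58, 72 and 50 counts) the lowest. Hand2, a bHLH factor of heart development, had 427, 331 and 605 counts and was the only list gene averaging 100 or more whose CV passed 20%. In all, 8 of the 9 bHLH genes reached the minimum of 10 in every mouse, beside 78.7% of all genes in the table. Hand1 had no row in the table analysed here. The list median was 314 counts per kilobase, beside 106.5 over all genes averaging 10 or more.

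All 14 corepressor genes reached the minimum, beside 78.7% of all genes in the table, with a list median of 201 counts per kilobase. They encode the CtBP, histone deacetylase, LSD1-CoREST, Sin3, Polycomb and NuRD partners and the LIM proteins of the Ajuba family. Hdac2 (832, 891 and 781 counts) was the highest per kilobase and Ajuba (357, 269 and 385 counts) the lowest. Ctbp1, which binds both Zeb proteins, had 1647, 1644 and 1533 counts, and the difference between Zeb1 and Ctbp1 per kilobase was smaller than its spread (log2 ratio 0.06 ± 0.20, exact sign-flip test, p = 1.0). Ezh2, the Polycomb methyltransferase, was the only one of the 14 with a CV over 20% (333, 625 and 493 counts, highest in mouse 2).

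Genes that regulate the factors or oppose the transition were split. Of 8 genes that control the turnover or activity of Snail, Twist and Zeb proteins, 7 reached the minimum. The F-box gene Fbxl14 was highest per kilobase (902, 903 and 937 counts), the kinase gene Gsk3b had 1275, 1197 and 1327 counts, and none of the 7 had a CV over 20%. Pak1, a kinase gene, had 9, 15 and 12 counts. Of the 6 epithelial genes that oppose the transition or are lost in it, only Grhl2 reached the minimum, with 10, 14 and 12 counts. The splicing factor gene Esrp2 had 2, 5 and 11 counts, and Ovol1, Ovol2, Esrp1 and Cdh1 had no row in the table analysed here.

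Among other transcription factors of the transition, 3 of 7 reached the minimum. Foxc2, a forkhead factor of lymphatic and valve endothelium, was the highest per kilobase, with 173, 194 and 338 counts and mouse 3 again above the others. Prrx1, a homeobox factor of mesenchyme, had 122, 124 and 120 counts, and Klf8 had 55 to 78. Snai3 and Twist2 fell short in every mouse, and Gsc had no row in the table analysed here.

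The inputs of the TGF-beta pathway were all present. All 12 of its genes reached the minimum, beside 78.7% of all genes in the table. None of the 12 had a CV over 20%, and the list median was 180 ± 8.26 counts per kilobase (SD, n = 3). The ligand gene Tgfb1 (1340, 1397 and 1347 counts) was the highest of the list per kilobase and Tgfb2 (367, 265 and 282 counts) the lowest. The type II receptor gene Tgfbr2 had 1694, 1697 and 2035 counts, and the inhibitory Smad gene Smad7 had 1518, 1382 and 1521.

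Most endothelial junction and receptor genes of the list were high per kilobase. All 8 junction and receptor genes reached the minimum, with a list median of 680 ± 24.1 counts per kilobase (SD, n = 3). Pecam1, an adhesion receptor, was the highest per kilobase (2722, 2847 and 2668 counts). Cdh5, which encodes VE-cadherin, had 2808, 2860 and 2930 counts, a CV of 2.14%. Most of this list lay near the 99th percentile of counts per base given above, so duplicate removal limits both the levels and the spread measured for these genes, and how much of either was lost was not tested. Ocln, a tight junction gene, was the exception, with 57, 49 and 133 counts and the lowest level of the list. Zeb1 lay below Erg, an endothelial ETS factor gene, by a log2 ratio of -0.98 ± 0.17 in 3 of 3 mice.

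Mesenchymal genes lay lower and varied more. Of 14 genes, 12 reached the minimum, and S100a4 (5, 25 and 9 counts) and Cnn1 (1, 4 and 12 counts) did not. The list median was 97.2 ± 26.7 counts per kilobase, below that of the junction and receptor list by a log2 ratio of -2.85 ± 0.46 in 3 of 3 mice (exact sign-flip test, p = 0.25). Of the 11 genes averaging 100 or more, 7 had a CV over 20%. Among all genes the share was 11.6% at such means and 26.1% at means of 100 to 300. Most of the junction and receptor list lay near the limit of duplicate removal. How far that step shaped the distance between the lists in level and spread was not tested. The smooth muscle genes Acta2 (67, 128 and 210 counts) and Tagln (103, 206 and 338 counts) were lowest in mouse 1 and highest in mouse 3, and both mark mural cells too. The matrix genes Col3a1 (388, 798 and 655) and Postn (344, 741 and 671) were highest in mouse 2. Sparc, a matrix protein gene also made by endothelium, was the highest of the list per kilobase and varied little, with 1821, 1999 and 1806 counts. Summed, the list had 5490, 7390 and 7686 counts in mice 1, 2 and 3. The cadherin pair stood far apart, Cdh5 exceeding Cdh2 (N-cadherin) per kilobase by a log2 ratio of 4.47 ± 0.06 (22.2-fold; 3 of 3 mice). Cdh5 lay near the same limit of duplicate removal and Cdh2 far below it, so this ratio may understate the distance.

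**Figure D4:**
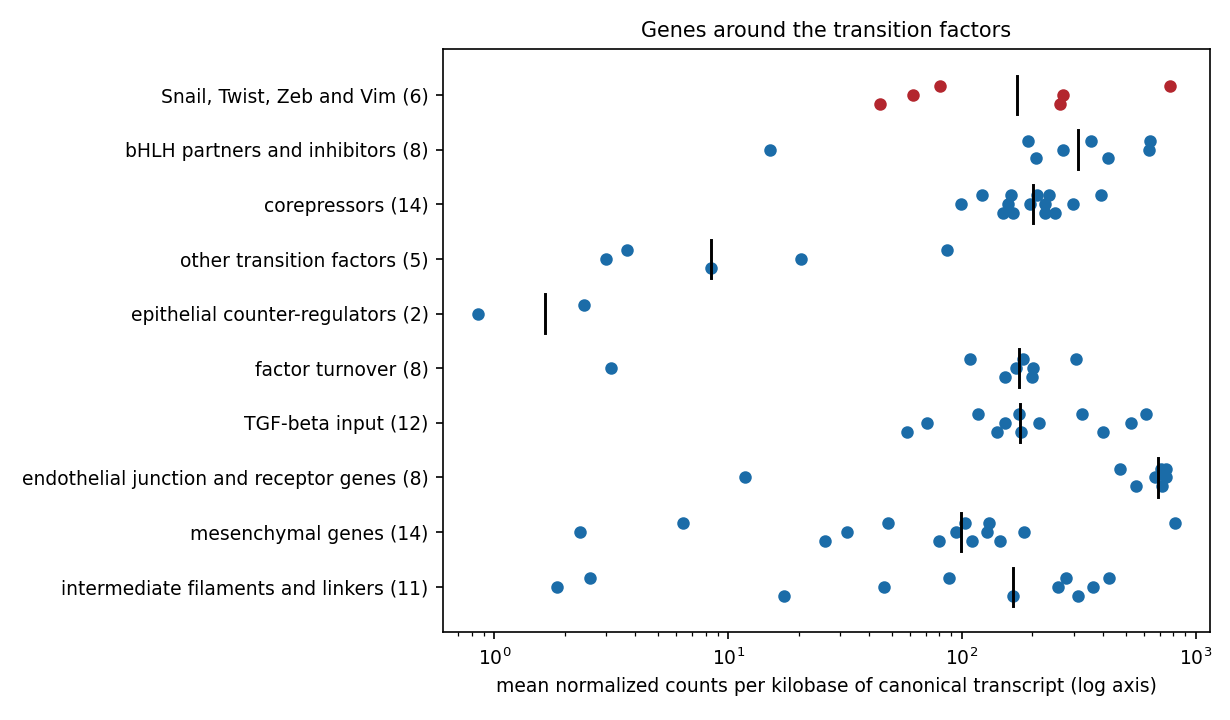
Mean normalized counts per kilobase of canonical transcript (log axis) over the 3 mice for the 6 genes (red) and for each list of related genes (blue); each point is a gene, the black line is the median of the points, and the number in parentheses counts the genes drawn. The junction and receptor genes lie together at the high end except Ocln, and the epithelial list has the lowest median.

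Vim was compared with other filament genes, which form the cytoskeleton or the nuclear lamina. Of 12 filament and linker genes, 9 reached the minimum, Gfap and Prph had at most 6 counts, and Krt8 had no row in the table analysed here. Vim exceeded Lmna, the A-type lamin gene and the highest of this list, by a log2 ratio of 0.87 ± 0.09 (1.82-fold). It exceeded Nes (nestin) by 1.32 ± 0.12 (2.49-fold) and Des (desmin), the muscle filament gene, by 1.48 ± 0.23 (2.80-fold), each in 3 of 3 mice (exact sign-flip test, p = 0.25). These ratios rest on canonical lengths. Without division by length Nes lay above Vim in every mouse (1680, 2128 and 1940 counts beside 1648, 1792 and 1661), while Lmna and Des stayed below it. With joined exons the level of Vim was 358 per kilobase, and the filament genes were not compared on that length. Lmnb1 (869, 1393 and 1168 counts) and Lmnb2 (668, 997 and 952 counts), the B-type lamin genes, were the 2 list genes averaging 100 or more whose CV passed 20%. Vim and Cdh5 were close per kilobase, with a log2 ratio of 0.12 ± 0.07. The sign of this ratio depended on the length used: it was -0.87 with joined exons and -0.75 without division by length. Both genes also lay near the limit of duplicate removal described above. How much of the level of either gene was lost in that step was not tested, so their RNA need not have been this close.

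The protein-coding genes nearest to each factor in level and pattern were found among 12951 genes by the root mean square of the log2 differences per kilobase over the 3 mice. Those nearest to Vim were Actb, the cytoplasmic actin gene, at 0.02 and Arpc2, an actin-branching subunit gene, at 0.02. Actb and Arpc2 lay, like Vim, near the limit of duplicate removal described above. How far that step shaped their likeness to Vim was not tested. Those nearest to Snai2 were Arf4 and Tmsb10, both at 0.02. Itsn2 (0.02) and Smurf2 (0.03) were nearest to Zeb1, and Sntb1 (0.03) and Prxl2a (0.04) to Zeb2. Snai1 was nearest to Pprc1 (0.04) and Tmem255a (0.07). Twist1 had no gene as near as these: Ddr1, a collagen receptor gene with 192, 200 and 345 counts, lay at 0.13 and P3h2, a collagen prolyl hydroxylase gene with 160, 175 and 309 counts, at 0.14. With 3 mice such likeness is a description of level and spread only.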

How the data were processed

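The authors trimmed reads (Trimmomatic 0.39), aligned them to mm39 with STAR 2.7.11a, removed duplicates with Picard 3.1.1, discarded ribosomal, mitochondrial and multi-mapping reads, and counted exonic reads on the correct strand with featureCounts 2.0.4. The deposited values are treated as a score: the authors divided the counts by DESeq2 1.36.0 size factors and rounded them, so no count test was run. The sums were 7149102, 7158585 and 7268785; spacing of the rounded values implied about 7321000, 6753000 and 7568000 reads. These depths limit only the lower genes, and counting errors cover sampling of reads alone.

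Lengths were taken from GENCODE M39 for 17475 genes (99.39%), matched by identifier, and positions are those of GRCm39. This annotation is newer than that of the authors. Ratios were taken within each mouse without a pseudocount and tested by an exact two-sided sign-flip test. Every gene in the table had a highest value of at least 4. Self-written scripts were tested on simulated data. Exact copies were searched with BLAST 2.17.0. Python 3.11.15, numpy 2.4.6, pandas 2.3.3 and matplotlib 3.10.9 were used.

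The 6 genes and all lists were chosen with earlier results of these data known. Named genes were the 6 genes, the highest, lowest and undetected genes of each list, and the 2 genes most like each factor by root mean square difference; further list genes were named after their values were seen. Alternatives were other lengths, scalings, pseudocounts and minimums, and leaving out each mouse. The labels call the samples biological replicates, and spread is that between 3 mice. Of the list of other transition factors, 1 gene is not reported here and not drawn.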

Additional observations from a re-analysis of the deposited data

How the results depend on the processing

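The ratios of Zeb2 to Zeb1, of Snai2 to Snai1 and of the mesenchymal to the endothelial list median kept their direction with joined exon lengths, a pseudocount of 1 and no division by length. They also kept it without any 1 mouse, but each had the same sign in every mouse, so that omission could not reverse them. The ratio of Vim to Cdh5 reversed, to -0.871 with joined exons and -0.754 without division by length. With 3 mice no sign-flip p can fall below 0.25, and with 2 mice below 0.5. The count of genes with a CV over 20% was 1273 with a mean of at least 100, 3492 with a mean of at least 10, 749 with a mean of at least 200, and 794 for means of 100 to 300, a range chosen after seeing the data. It ranged from 735 (without mouse 1) to 1467 when 1 mouse was left out. All 36 alternative means of the 6 genes lay within 1 SD. With 3 mice, a median or a mean without 1 mouse cannot lie further away, so this was fixed in advance. Rescaling multiplied a library by only 0.989 to 1.006 and could hardly move a mean.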

Other observations

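Antisense genes overlap both Zeb genes. Zeb1os1, on the strand opposite Zeb1, had 92, 79 and 69 normalized counts in mice 1, 2 and 3, and was lowest in mouse 3, where Zeb1 was highest. Zeb2os, opposite Zeb2, had 21, 12 and 22 and, like Zeb2, was highest in mouse 3, just above mouse 1. A relation between the strands was not tested. Reads were counted on the correct strand, and how completely the library separated the strands was not tested.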
